A study of Rattus norvegicus with 8 samples.

Results

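The genes described here encode the pumps and exchangers that clear calcium from the neuronal cytoplasm: the 4 plasma membrane calcium ATPases Atp2b1, Atp2b2, Atp2b3 and Atp2b4, the 3 sodium-calcium exchangers Slc8a1, Slc8a2 and Slc8a3, and Atp2a2, the pump of the endoplasmic reticulum. They were chosen by name for this function, with earlier results of these data known, and are 8 of the 28909 gene symbols in the count table. All 8 were among the 14309 genes tested. RNA-seq was performed on primary hippocampal neurons of Sprague-Dawley rat embryos, plated on the upper side of porous filter inserts. Axons and dendrites can pass the pores to the lower side (processes), and cell bodies cannot. The upper side (somata) holds the cell bodies and any axons and dendrites that stay there. Cultures received picrotoxin (PTX), an antagonist of the GABA-A receptor, for 48 h from day in vitro 18 to 20, and control cultures received the solvent. The 8 libraries fall into 4 conditions of 2 each: somata control, somata PTX, processes control and processes PTX. Neither the labels nor the methods used here say whether the 2 libraries of a condition came from separate cultures, so the p-values measure only the spread between these libraries.

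Calcium that enters a neuron during firing is removed in several ways. Plasma membrane calcium ATPases (PMCAs) extrude it with high affinity at the cost of ATP and are activated by calmodulin. Sodium-calcium exchangers (NCXs) have lower affinity and higher capacity, and use the inward sodium gradient to carry calcium out. SERCA pumps, of which Atp2a2 encodes the SERCA2 form found throughout the body, return calcium to the endoplasmic reticulum. Prolonged PTX raises network activity by removing inhibition, and is a common way to induce homeostatic downscaling of excitatory synapses.

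The windows around the annotated transcription starts are shown for 4 of these genes, because 2 of them (Atp2b2 and Atp2a2) had higher mean levels in the processes of PTX cultures and the other 2 (Atp2b4 and Slc8a2) had lower levels with PTX in both compartments. Each window of 300 bases runs from 250 bases before the start to the first 50 bases after it, 5′ to 3′ on the gene's strand, with the GC box GGGCGG on either strand in capitals. The sequences are from RefSeq on GRCr8, a later build than the one used for counting, and windows matched 7 of the 8 genes, with none for Atp2b3. The positions are chr4:148763604-148763903 on the minus strand for Atp2b2, chr12:39733269-39733568 on the plus strand for Atp2a2, chr13:47758827-47759126 on the minus strand for Atp2b4 and chr1:85950512-85950811 on the plus strand for Slc8a2.
Atp2b2: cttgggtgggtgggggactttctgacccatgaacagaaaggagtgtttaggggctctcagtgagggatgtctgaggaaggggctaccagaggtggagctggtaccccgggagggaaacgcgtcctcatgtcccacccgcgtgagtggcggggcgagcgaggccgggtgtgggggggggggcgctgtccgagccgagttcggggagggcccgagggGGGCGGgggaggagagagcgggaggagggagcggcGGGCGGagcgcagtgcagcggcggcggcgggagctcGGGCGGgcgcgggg
Atp2a2: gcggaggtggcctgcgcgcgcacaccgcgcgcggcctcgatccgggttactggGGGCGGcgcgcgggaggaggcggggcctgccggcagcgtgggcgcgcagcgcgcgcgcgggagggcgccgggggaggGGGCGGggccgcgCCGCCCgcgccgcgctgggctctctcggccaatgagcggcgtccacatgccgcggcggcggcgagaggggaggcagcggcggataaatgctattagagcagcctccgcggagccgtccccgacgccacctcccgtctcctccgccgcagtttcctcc
Atp2b4: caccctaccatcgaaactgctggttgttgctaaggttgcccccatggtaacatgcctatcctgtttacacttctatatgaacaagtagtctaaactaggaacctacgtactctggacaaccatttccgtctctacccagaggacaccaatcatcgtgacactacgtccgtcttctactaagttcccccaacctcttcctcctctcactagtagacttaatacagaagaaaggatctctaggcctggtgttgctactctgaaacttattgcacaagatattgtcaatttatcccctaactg
Slc8a2: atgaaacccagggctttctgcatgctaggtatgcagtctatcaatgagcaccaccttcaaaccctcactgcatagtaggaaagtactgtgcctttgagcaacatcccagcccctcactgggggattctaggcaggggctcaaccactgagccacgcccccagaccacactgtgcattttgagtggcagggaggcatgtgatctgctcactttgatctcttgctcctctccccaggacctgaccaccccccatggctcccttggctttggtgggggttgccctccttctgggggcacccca

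The windows of Atp2b2 and Atp2a2 each held 3 GC boxes and had a GC content of 72.3% and 79.0%. The window of Atp2b4 held none at a GC content of 44.7%, and that of Slc8a2 none at 57%. Among the other windows, that of Atp2b1 held 3 GC boxes, Slc8a3 held 1 and Slc8a1 held 0. None of these 3 genes passed the test with PTX, and neither did Atp2b2 or Atp2a2. The adjusted p of Atp2b2 was 0.206 in somata and 0.0518 in processes (edgeR quasi-likelihood test), and its mean level in somata was lower with PTX. For Atp2a2 the adjusted p was 0.456 and 0.240 in the same test. The windows shown were chosen by the direction of the PTX result. Whether GC boxes go with that direction was not tested. A GC box was present in 33.1% of the 33469 windows of this length. The ratio of observed to expected CpG was 0.866 in Atp2b2, 1.12 in Atp2a2, 0.440 in Atp2b4 and 0.0419 in Slc8a2. Only 5.56% of all windows had a ratio below that of Slc8a2. The annotated starts of Atp2b4 and Slc8a2 do not lie at the outer end of their gene records, so these windows may not be the promoters used in neurons. The cAMP response element TGACGTCA, present in 1.83% of windows on either strand, was in none of the 7 windows. A match or its absence is a description of these letters only.

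Total counts were between 12290890 and 18455662 per library. Genes of the mitochondrial genome took 22.6% to 26.7% of the counts in somata and 68.5% to 72.5% in processes, which left 9517542 to 11227599 counts of nuclear genes in a somata library and 4702054 to 5491237 in a processes library. Levels are given as CPM, counts scaled to a library of 1000000 reads, after TMM scaling, which assumes that most genes do not change. All 5 neuronal markers were present. They summed to 1471 to 1600 CPM in somata control and 1291 to 1417 CPM in somata PTX. In processes they summed to 4880 to 5131 CPM in control and 3656 to 4291 CPM with PTX. Most of the sum in processes was Map2, and 3 of the 5 markers (Tubb3, Snap25 and Syp) were lower in processes than in somata of control cultures. The 6 astrocyte markers summed to 3458 to 3908 CPM in somata control and 2600 to 3619 CPM in somata PTX. In processes they summed to 12430 to 13910 CPM in control and 10500 to 11787 CPM with PTX. RNA of astrocyte marker genes was thus present on both sides of the filter. The 4 microglial markers in the table summed to at most 1.51 CPM in any library. Levels are compared for one gene between conditions, not between genes, because transcript lengths of the build used for counting were not used here.

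The first question was how prolonged PTX changed these genes in somata. Atp2b4, Atp2b3 and Slc8a2 fell with PTX in somata to 0.340, 0.458 and 0.481 of their control levels, and no other gene of the 8 passed the test (adjusted p under 0.05, edgeR quasi-likelihood test). In processes the same 3 genes fell, to 0.504, 0.607 and 0.520 of control. The 3 lower genes of 8 stand beside 1.5% of all tested genes that were called lower and 2.09% called higher in somata. In processes 2.1% of all tested genes were called lower and 1.64% higher. Because the 8 genes were chosen with earlier results of these data known, setting them beside these shares is a description only. The median log2 fold change of the 8 genes was -0.27 in somata and -0.06 in processes, against -0.01 for all tested genes in each compartment. In bulk RNA, fewer cells of a type and less RNA per cell cannot be told apart.

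**Figure D1:**
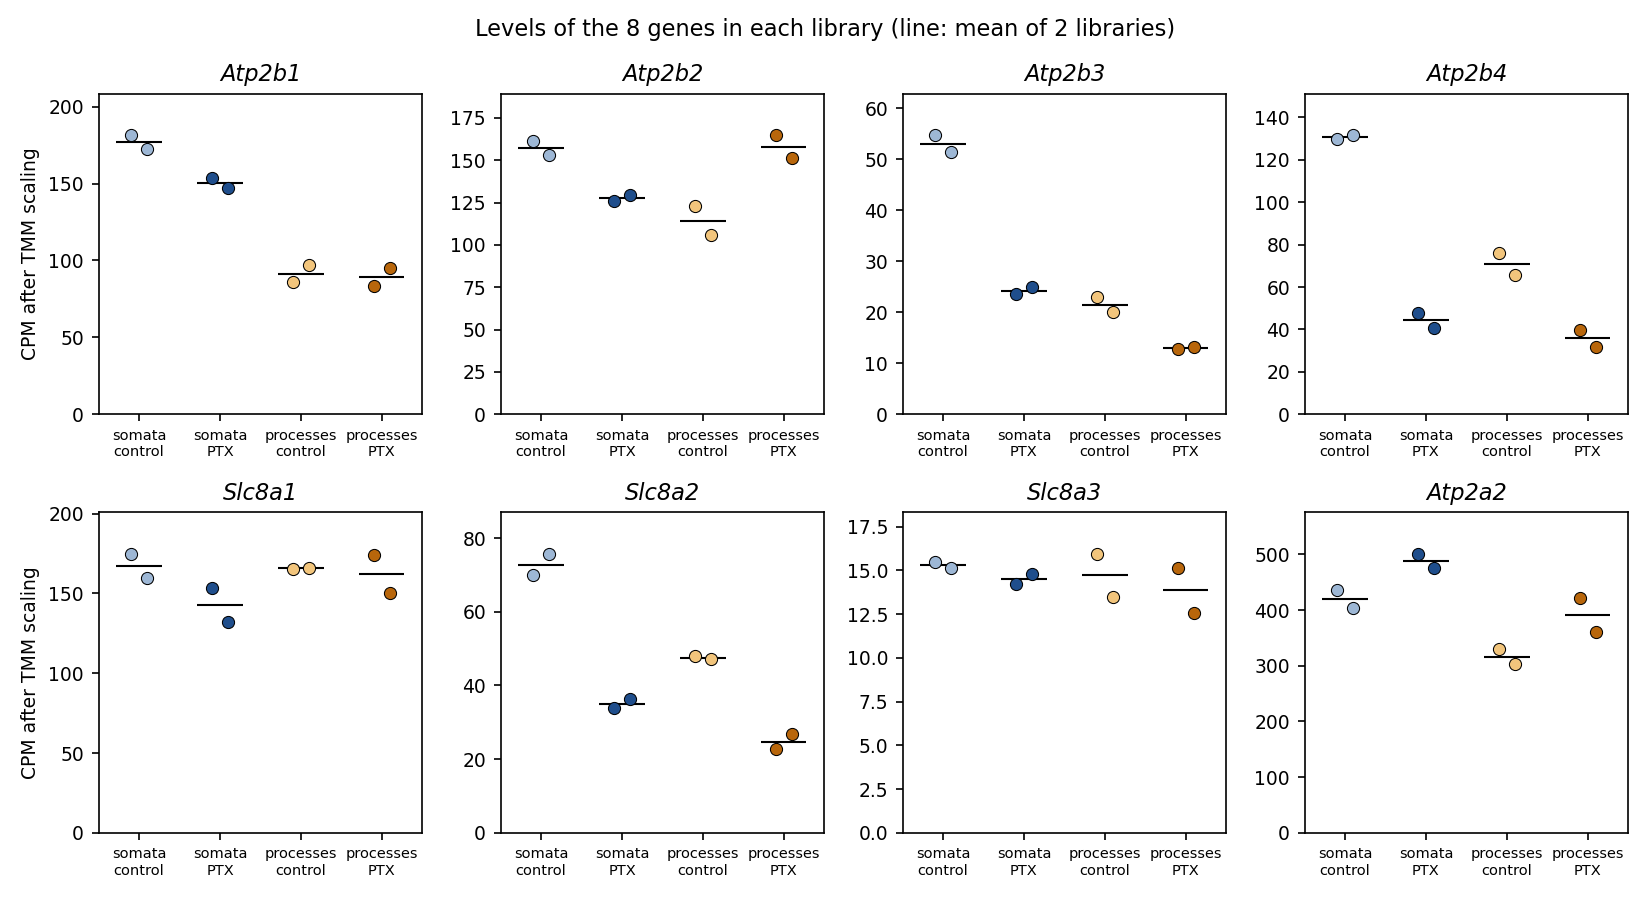
Levels of the 8 genes in CPM after TMM scaling, with each point a library, each line the mean of 2 libraries, and a vertical axis from 0 in each panel. For Atp2b3, Atp2b4 and Slc8a2 both PTX libraries lie below both control libraries in somata and in processes, whereas for Atp2b2 the PTX libraries lie below the controls in somata (126 and 129.7 against 162 and 153 CPM) and above them in processes (165 and 151 against 123 and 106 CPM).

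Among the PMCAs, Atp2b4 (PMCA4) had the lowest log2 fold change with PTX. In somata its level was 129.6 and 132 CPM in the control libraries and 47.9 and 40.7 CPM in the PTX libraries. In processes it was 75.9 and 65.8 CPM in control and 39.6 and 31.9 CPM with PTX. The PTX libraries were lower than the controls on both sides of the filter, without overlap. With 2 against 2 libraries such separation is frequent without any effect. Its share over all tested genes was not counted, for this gene or those below. The log2 fold change was -1.56 (standard error 0.133, adjusted p = 0.000216) in somata and -0.99 (standard error 0.141, adjusted p = 0.00494) in processes. Ranked by log2 fold change in somata, Atp2b4 was 29th from the lowest of 14309 genes. In processes the adjusted p was 0.0528 when the first control library of processes was left out, at a log2 fold change of -0.88.

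Atp2b3 (PMCA3), a pump expressed mainly in neurons, followed the same course at a lower read count. The control libraries of somata held 54.7 and 51.3 CPM and the PTX libraries 23.6 and 25.0 CPM. In processes the levels were 23.1 and 20.0 CPM in control and 12.9 and 13.3 CPM with PTX, from 112 to 207 reads per library. No PTX library reached a control library of its compartment. The PTX libraries differed from control by -1.13 on the log2 scale (standard error 0.111, adjusted p = 0.00054) in somata and by -0.72 (standard error 0.133, adjusted p = 0.0168) in processes. The call in processes depended on single libraries: the adjusted p was 0.123 without the first control library of processes, 0.0938 without its first PTX library and 0.0837 without its second. With only the 4 libraries of processes in the model the adjusted p was 0.0658.

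Atp2b2 (PMCA2), a fast pump of neurons and sensory hair cells, differed from control in opposite directions in the 2 compartments. In somata the control libraries held 162 and 153 CPM and the PTX libraries 126 and 129.7 CPM. In processes the control libraries held 123 and 106 CPM and the PTX libraries 165 and 151 CPM. The groups did not overlap in either compartment. The log2 fold change was -0.30 (standard error 0.112, adjusted p = 0.206) in somata and 0.47 (standard error 0.115, adjusted p = 0.0518) in processes, and neither passed the test. The value in processes passed in 9 of 18 alternatives, with an adjusted p between 0.00154 and 0.0493, among them the likelihood ratio test (0.0129) and DESeq2 (0.0133). A model with the replicate number as a block, which compares libraries of the same number, gave an adjusted p of 0.0259 in somata and 0.00154 in processes. In this blocked model 6.79% of all tested genes were called lower in somata and 5.1% were called higher in processes.

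Whether PTX acted differently on the 2 sides of the filter was tested as an interaction, which was 0.77 on the log2 scale for Atp2b2 (standard error 0.160, adjusted p = 1). None of the 14309 genes passed this test (0%) with the edgeR quasi-likelihood test. In that test 572 genes had an unadjusted p under 0.05. This is less than the fraction of 0.05 that would be reached with no effect in any gene. With the replicate number as a block 1242 genes did, more than that fraction. The unadjusted p of Atp2b2 in the quasi-likelihood test without the block was 0.00062. Both the likelihood ratio test and DESeq2 called 4 genes, none of them among these 8. In the blocked model Atp2b2 passed (0.77, standard error 0.131, adjusted p = 0.0116) as 1 of 15 genes, or 0.105% of those tested. The corresponding values were 0.57 for Atp2b4 (adjusted p = 0.149 with the block) and 0.41 for Atp2b3 (adjusted p = 0.469 with the block), both in the direction of a smaller decrease in processes. For the other 5 genes the estimate lay between -0.02 and 0.20.

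Markers of neurons moved with PTX as well. Of the 5 general neuronal markers, 1 was called lower with PTX in somata and none in processes. The blocked model called 2 lower in somata and 4 in processes, beside 6.79% and 6.09% of all tested genes. Markers of excitatory and inhibitory neurons also moved. The 3 excitatory markers summed to 305 to 314 CPM in somata control and 219.9 to 247 CPM in somata PTX, but to 150.3 to 195 CPM in processes control and 252 to 278 CPM in processes PTX, lower with PTX in somata and higher in processes as for Atp2b2. Their members differed: Neurod6, a transcription factor of pyramidal neurons, fell by 1.64 on the log2 scale in somata (adjusted p = 0.000785), with a decrease of similar direction in processes (-1.34, adjusted p = 0.00818), and Slc17a7, the vesicular glutamate transporter VGLUT1, rose by 0.73 in processes (adjusted p = 0.0172). The sum followed mainly Slc17a7, and Slc17a6, the transporter VGLUT2, had a log2 fold change of 0.50 in somata (adjusted p = 0.307, or 0.0329 in the blocked model) and 1.10 in processes (adjusted p = 0.104). The 3 inhibitory markers summed to 203 to 278 CPM in somata control and 367 to 470.3 CPM in somata PTX. In somata 2 of them were called higher, beside 2.09% of all tested genes, with log2 fold changes from -0.02 to 0.92. In processes the inhibitory sum was 124.2 to 156.0 CPM in control and 202.9 to 266.1 CPM with PTX. There 1 was called higher, beside 1.64% of all tested genes, with log2 fold changes from 0.16 to 0.92. The part of any of these markers in the changes of the pumps was not tested.

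Atp2b1 (PMCA1), the pump regarded as the housekeeping form of the family, did not pass the test in either compartment. In somata its level was 181 and 172 CPM in control and 154 and 147 CPM with PTX. In processes it was 85.8 and 97.0 CPM in control and 83.4 and 95.02 CPM with PTX. The groups were separate in somata and overlapped in processes. The log2 fold change was -0.23 (standard error 0.112, adjusted p = 0.357) in somata and -0.03 (standard error 0.117, adjusted p = 0.933) in processes, where it was 0.011 with library size alone.

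**Figure D2:**
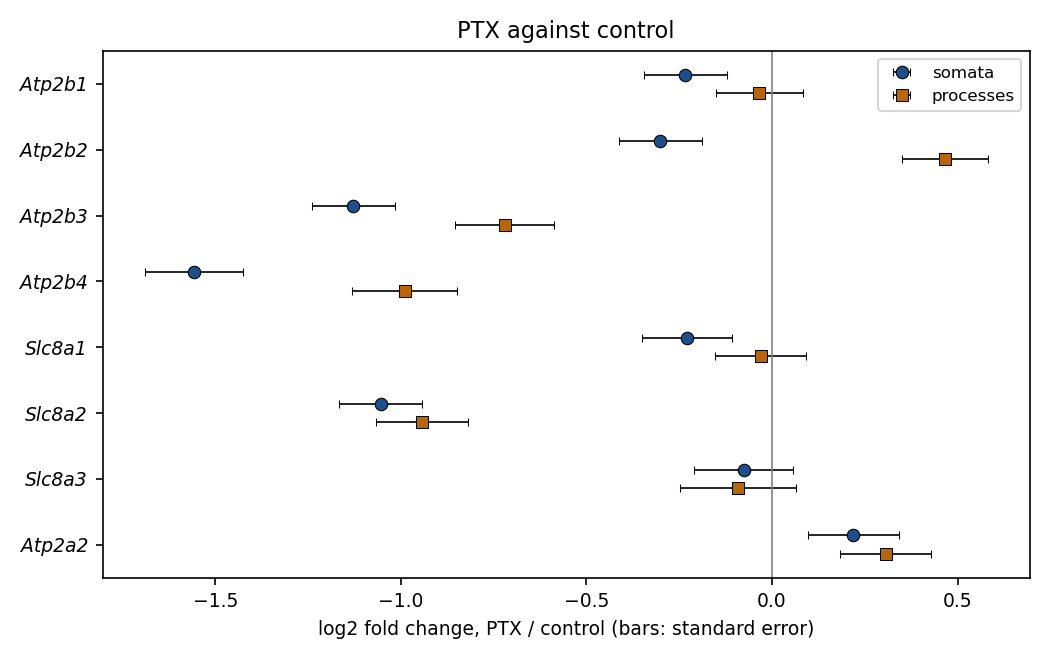
Log2 fold change of PTX against control for each of the 8 genes (horizontal axis, bars are the standard error of the model) in somata (circles) and processes (squares). Atp2b3, Atp2b4 and Slc8a2 lie at or below -0.72 in both compartments, and Atp2b2 lies at -0.30 in somata and 0.47 in processes.

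The sodium-calcium exchangers split in a similar way, with 1 of the 3 lower. Slc8a2 (NCX2), an exchanger found largely in brain, had 69.9 and 75.7 CPM in the control libraries of somata and 33.8 and 36.3 CPM in the PTX libraries. In processes it had 47.9 and 47.1 CPM in control and 22.6 and 26.7 CPM with PTX. Every PTX library lay below both controls of its compartment. On the log2 scale the change was -1.06 (standard error 0.112, adjusted p = 0.000808) in somata and -0.94 (standard error 0.124, adjusted p = 0.00392) in processes, with an interaction of 0.11 (standard error 0.166). Both calls held in each of the alternative models and without each single library.

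Slc8a1 (NCX1), the widely expressed exchanger, did not pass the test in either compartment. In somata it had 175 and 160.0 CPM in control and 153 and 132 CPM with PTX. In processes it had 165 and 166 CPM in control and 174 and 150.2 CPM with PTX. The PTX libraries of processes lay on either side of the controls, and those of somata lay below theirs. The log2 fold change was -0.23 (standard error 0.121, adjusted p = 0.421) in somata and -0.03 (standard error 0.123, adjusted p = 0.944) in processes, where it too was 0.011 with library size alone.

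Slc8a3 (NCX3) stayed between 12.6 and 15.9 CPM in all 8 libraries. Its log2 fold change was -0.08 (standard error 0.134, adjusted p = 0.874) in somata and -0.09 (standard error 0.155, adjusted p = 0.831) in processes. In somata both PTX libraries (14.2 and 14.8 CPM) lay below both controls (15.5 and 15.1 CPM), and in processes the groups overlapped. The ranges of neighbouring conditions overlapped all along the order of its levels.

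Atp2a2 (SERCA2) was the only gene of the 8 with a higher mean level after PTX in both compartments. In somata its level was 435 and 403 CPM in control and 501 and 475 CPM with PTX. In processes it was 330.2 and 303 CPM in control and 423 and 359.9 CPM with PTX. Both PTX libraries lay above both controls on each side. The difference from control was 0.22 on the log2 scale (standard error 0.122, adjusted p = 0.456) in somata and 0.31 (standard error 0.124, adjusted p = 0.240) in processes, so neither passed. The blocked model gave an adjusted p of 0.122 in somata and 0.0356 in processes.

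As these changes were unequal within each family, the make-up of the family's reads was compared. Read shares depend on transcript length and so do not give shares of molecules, and the size of a change in a share also depends on the lengths where paralogs change unequally. Atp2b2 took 30.4% ± 0.360 (SD, n = 2) of the PMCA reads in somata control and 36.9% ± 1.45 in somata PTX. In processes its share was 38.3% ± 2.37 in control and 53.3% ± 2.05 with PTX, more than all other PMCAs together. The share of Atp2b4 was 25.2% ± 0.909 in somata control, 12.8% ± 1.24 in somata PTX, 23.7% ± 1.32 in processes control and 12.1% ± 1.59 in processes PTX.

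**Figure D3:**
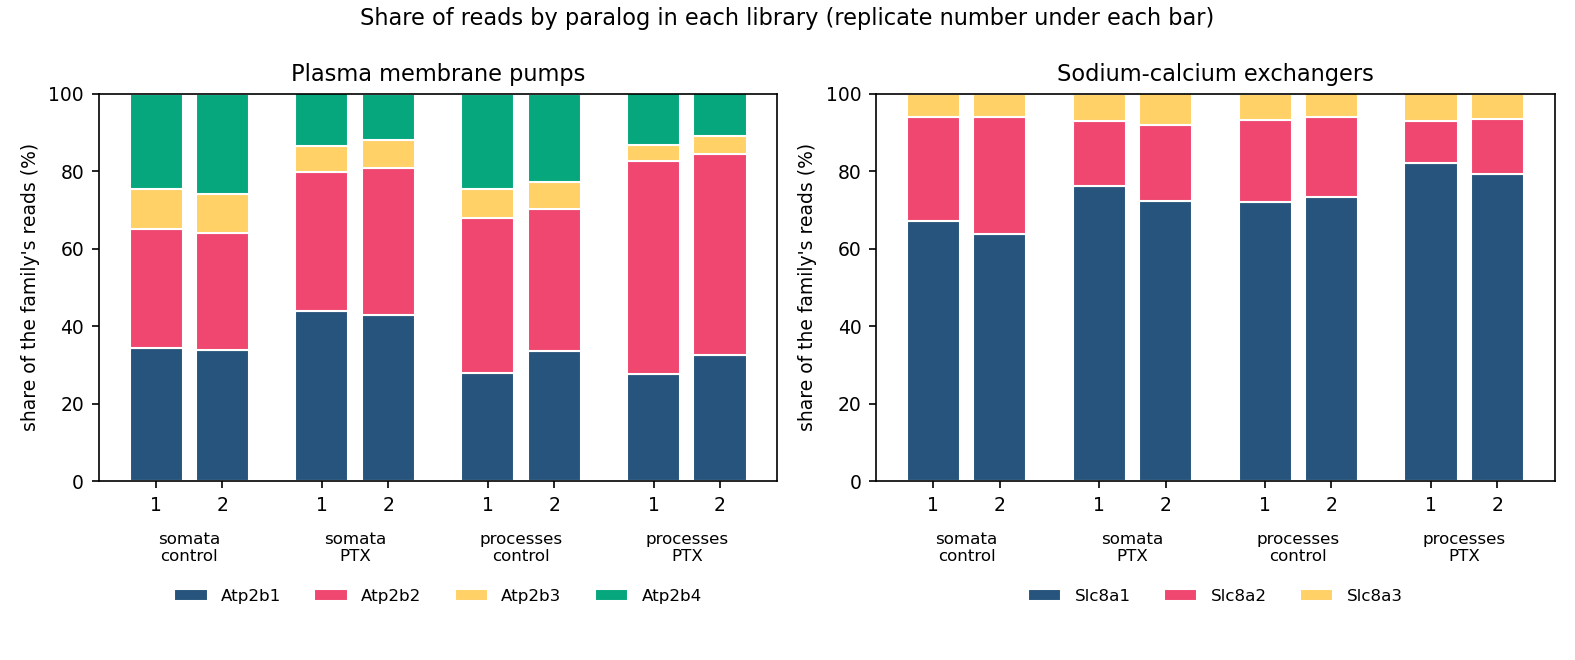
Share of the reads of the plasma membrane pumps (left) and of the sodium-calcium exchangers (right) taken by each paralog, in percent, with 1 stacked bar per library. In PTX libraries the segment of Atp2b4 is smaller than in the controls of the same compartment, and Atp2b2 takes 53.3% of the pump reads on average in processes PTX.

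The share of Atp2b3 was lower with PTX in both compartments, from 10.2% ± 0.196 to 7.002% ± 0.418 in the cell bodies and from 7.21% ± 0.407 to 4.42% ± 0.195 in processes. Atp2b1 took 34.1% ± 0.353 of the PMCA reads in somata control and 43.4% ± 0.631 in somata PTX, and 30.8% ± 4.09 and 30.2% ± 3.44 in processes. Among the exchangers, the share of Slc8a2 was 28.5% ± 2.35 in somata control and 18.3% ± 2.15 in somata PTX, and 20.8% ± 0.112 and 12.4% ± 2.44 in processes. Slc8a1 took the rest apart from 5.99% to 7.56% of reads from Slc8a3. These shares are a description, since 2 against 2 libraries cannot reach 0.05 in an exact two-sided permutation test.

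The summed level of the 4 PMCAs was 518 ± 13.2 CPM (SD, n = 2) in somata control and 347 ± 6.27 CPM in somata PTX. In processes the sum was 298 ± 13.8 CPM in control and 296 ± 6.45 CPM with PTX. The 3 exchangers summed to 256 ± 6.62 CPM in somata control, 192 ± 12.7 CPM in somata PTX, 228 ± 1.69 CPM in processes control and 201 ± 16.0 CPM in processes PTX. Like the shares, these sums depend on transcript lengths where paralogs change unequally. A similar sum of reads is therefore not a similar number of molecules.

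A further question was how the levels differed between the 2 sides of the filter. In control cultures all 4 PMCAs, Slc8a2 and Atp2a2 were lower in processes than in somata, whereas Slc8a1 and Slc8a3 did not pass the test. These 6 of 8 genes stand beside 21.9% of all tested genes called lower in processes and 25.8% called higher. The median log2 difference was -0.54 for the 8 genes and -0.05 for all tested genes. These directions are relative to TMM scaling. With library size alone the median of all genes in this comparison was -1.86 and all 8 genes were lower in processes, and the log2 differences of the 6 genes relative to that median were between -0.36 and -1.26.

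The lowest log2 difference was that of Atp2b3, with 21.5 ± 2.21 CPM (SD, n = 2) in processes and 53.0 ± 2.37 CPM in somata (-1.30, standard error 0.119, adjusted p = 9.76e-06). Atp2b1 differed by -0.95 (standard error 0.115, adjusted p = 7.16e-05) and Atp2b4 by -0.88 (standard error 0.133, adjusted p = 0.000338). Slc8a2 differed by -0.62 (standard error 0.114, adjusted p = 0.00134) and Atp2b2 by -0.46 (standard error 0.114, adjusted p = 0.00688). For Atp2a2 the difference was -0.41 (standard error 0.123, adjusted p = 0.0194), and the adjusted p was 0.117 without the first control library of somata and 0.0934 without the second control library of processes. Slc8a1 differed by -0.01 (standard error 0.122, adjusted p = 0.931), with libraries of 165 and 166 CPM in processes inside the range of somata.

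In PTX cultures Atp2b2 was higher in processes than in somata. Its level was 158 ± 9.50 CPM (SD, n = 2) in processes and 128 ± 2.72 CPM in somata, a log2 difference of 0.31 (standard error 0.113, adjusted p = 0.0436), which was -1.52 with library size alone, where the median of all genes was -1.87, and so 0.35 above that median. This call is close to the threshold: with upper-quartile scaling the adjusted p was 0.355, without the filter on low counts 0.0841 and with the filter of 10 reads in every library 0.0954. Leaving out the first and second libraries of somata control in turn gave 0.0588 and 0.0579, those of somata PTX 0.174 and 0.109, and those of processes PTX 0.182 and 0.0617. Atp2b2 was the only gene of the 8 called higher in processes, beside 25.7% of all tested genes.

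Atp2b1, Atp2b3 and Slc8a2 were lower also in the processes of PTX cultures, at log2 differences of -0.75 (standard error 0.115, adjusted p = 0.00034), -0.89 (standard error 0.126, adjusted p = 0.0002) and -0.50 (standard error 0.120, adjusted p = 0.00547). These 3 genes stand beside 24% of all tested genes called lower. Atp2b4 (-0.31, standard error 0.138, adjusted p = 0.0817) and Atp2a2 (-0.32, standard error 0.123, adjusted p = 0.0510) did not pass, and the blocked model gave them 0.0127 and 0.00435. Of 18 alternatives, 5 called Atp2b4 lower and 11 called Atp2a2 lower, the latter with an adjusted p of 0.0465 in the likelihood ratio test and 0.0499 in DESeq2. Slc8a1 differed by 0.18 (standard error 0.122, adjusted p = 0.233), or -1.65 with library size alone, and Slc8a3 by -0.07 (standard error 0.145, adjusted p = 0.716). For Atp2b4 and Slc8a2 the mean levels over the 4 conditions ran from somata control through processes control and somata PTX to processes PTX, and for Atp2b3 somata PTX came before processes control. No neighbouring conditions overlapped in this order for any of these 3 genes. Such separation of 2 libraries from 2 is frequent without any effect, and its share over all tested genes was not counted. The comparisons in control and PTX cultures share their libraries with the PTX comparisons above and are not independent of them.

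**Figure D4:**
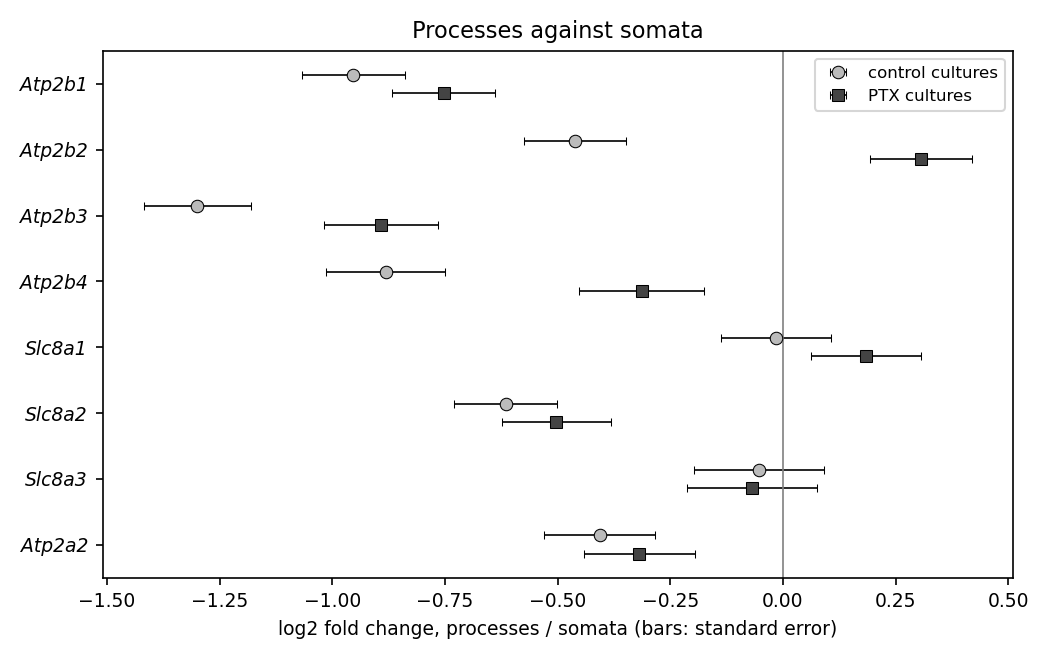
Log2 difference of processes against somata for each of the 8 genes (horizontal axis, bars are the standard error of the model) in control cultures (circles) and PTX cultures (squares), after TMM scaling. In control cultures 6 genes lie between -0.41 and -1.30, and Atp2b2 lies at -0.46 in control and 0.31 in PTX cultures, where library size alone gives -1.52.

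Astrocyte and dendritic transcripts also differed between the compartments. Gfap, the intermediate filament of astrocytes, had 1685 ± 136 CPM (SD, n = 2) in somata control and 10247 ± 1222 CPM in processes control. Map2, whose mRNA is known to enter dendrites, had 936 ± 69.4 CPM and 4609 ± 119.8 CPM. S100b was also higher in processes control (2.16 on the log2 scale, adjusted p = 1.94e-06), while the astrocyte markers Slc1a3 (-0.56, adjusted p = 0.0143) and Gja1 (-0.38, adjusted p = 0.0268) were lower, and Aqp4 (0.08) and Aldh1l1 (0.43) did not pass. The 3 excitatory markers were lower in processes control (150.3 to 195 CPM) than in somata control (305 to 314 CPM). How far glial RNA moved the compartment values of the pumps was not tested.

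A wider list of 42 genes of calcium transport and its partners was examined, of which 37 were tested. In somata 1 was higher (2.70%) and 2 were lower (5.41%) with PTX, beside the 2.09% and 1.5% of all tested genes. In processes 2 were higher (5.41%) and 3 were lower (8.11%), beside 1.64% and 2.1%. The blocked model called 2 higher and 5 lower (13.5%) in somata, where it called 7.21% of all genes higher and 6.79% lower. In processes it called 2 higher and 7 lower (18.9%), beside 5.1% and 6.09% of all genes. The median log2 fold change of the 37 genes was -0.09 in somata and -0.08 in processes. Ryr2, a ryanodine receptor that releases calcium from the endoplasmic reticulum, had log2 fold changes of -0.88 (adjusted p = 0.00234) in somata and -0.77 (adjusted p = 0.00779) in processes. Slc24a2, a potassium-dependent sodium-calcium exchanger of neurons, had -0.80 (adjusted p = 0.00692) and -0.78 (adjusted p = 0.0168). Atp1b1, a beta subunit of the sodium pump that maintains the gradient used by the exchangers, had 0.56 (adjusted p = 0.0473) and 0.76 (adjusted p = 0.0166).

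In processes Itpr2, an inositol trisphosphate receptor, rose by 0.59 (adjusted p = 0.0313), and Orai2, a channel of store-operated calcium entry, fell by 0.71 (adjusted p = 0.0379). None of the 7 tested genes of mitochondrial calcium transport or the 2 PMCA subunits Bsg and Nptn passed the test with PTX in either compartment, although in the blocked model Letm1 was lower in processes (-0.41, adjusted p = 0.0114). The secretory pathway pump Atp2c1 did not pass either, with log2 fold changes of 0.14 and 0.19. Of the SERCA genes and their small regulators other than Atp2a2, only Pln, which encodes phospholamban, was tested, at 1.43 ± 0.0825 CPM in somata control, and it did not pass with PTX.

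**Figure D5:**
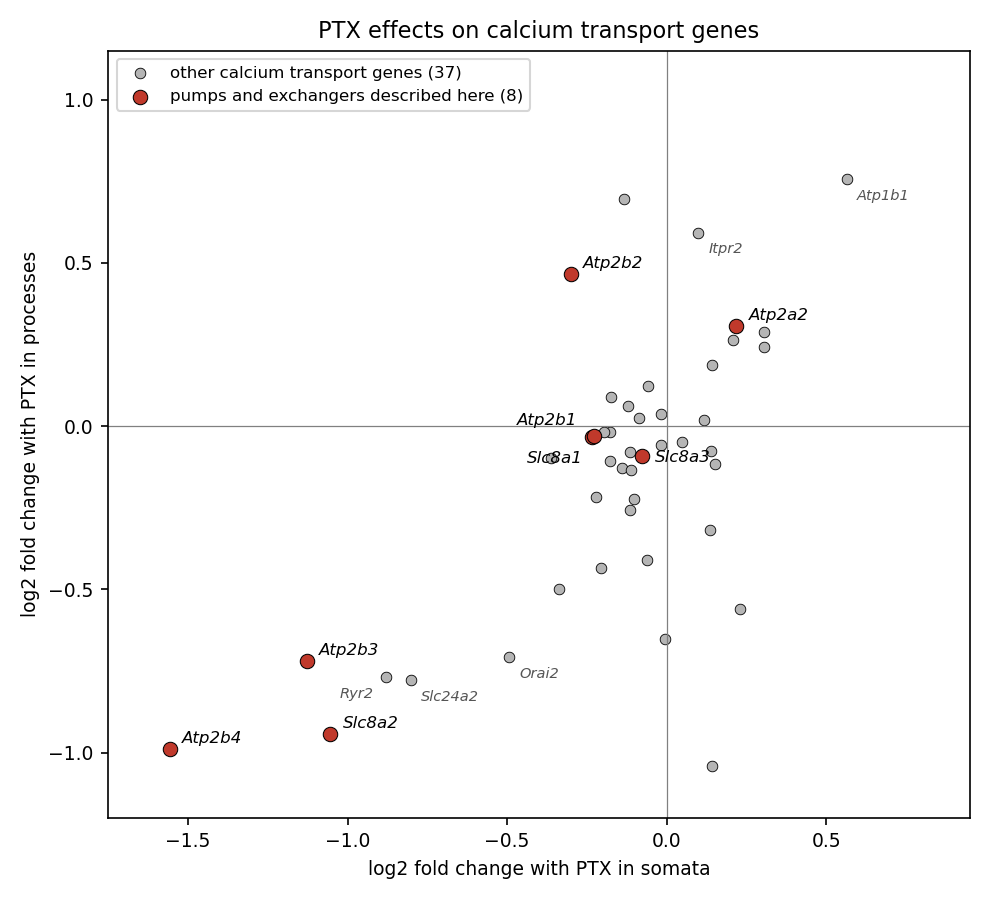
Log2 fold change with PTX in somata (horizontal axis) and in processes (vertical axis) for the 8 pumps and exchangers (red) and the 37 other tested genes of calcium transport (grey), with names on the 8 and on grey genes that passed in at least 1 compartment. Atp2b4, Atp2b3 and Slc8a2 lie at the lower left with Ryr2 and Slc24a2, and Atp2b2 lies in the upper left at -0.30 and 0.47.

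Between compartments of control cultures, 9 of the 37 genes (24.3%) were higher and 13 (35.1%) lower in processes, beside the 25.8% and 21.9% of all tested genes given above. Bsg and Nptn, which encode the basigin and neuroplastin subunits that PMCAs need to reach the membrane, were lower in processes like the pumps themselves, at -0.93 (standard error 0.154, adjusted p = 0.000654) and -1.33 (standard error 0.104, adjusted p = 3.88e-06). With library size alone nearly all genes were lower in processes, as described above.

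For each of these genes, the 3 tested genes with the highest Pearson correlation of log2 CPM over the 8 libraries were sought in a set of 10207 genes whose mean level was 5 CPM or more. These values describe likeness over libraries that share the same 4 conditions. Atp2b4 was most like Ppp3ca, a catalytic subunit of calcineurin (r = 0.994), Neurod6 (r = 0.985) and LOC100912282 (r = 0.981). Slc8a2 was most like Necab1, a neuronal calcium-binding protein (r = 0.994), Plxna1 (r = 0.988) and Vps35l (r = 0.979). Atp2b3 was most like Lrrn2, Unc5d and Cdh11 (r between 0.985 and 0.991).

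Atp2b2 was most like Slc17a7 (r = 0.956), Gpc1 (r = 0.910) and Prkra (r = 0.892). The level of Slc17a7 was 259 ± 4.34 CPM (SD, n = 2) in somata control and 206 ± 11.9 CPM in somata PTX, and 150.5 ± 28.3 CPM and 251 ± 14.6 CPM in processes. Atp2b1 was most like Ogt (r = 0.994), and Atp2a2 was most like Plat (r = 0.996), Pkm (r = 0.995) and C1ql2 (r = 0.989). Slc8a3 was most like Elac2 (r = 0.955). Among the 8 genes themselves, Atp2b4 and Slc8a2 had r = 0.953 and Atp2b3 and Slc8a2 had r = 0.923, while Atp2b2 had r between -0.05 and 0.41 with the others.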

How the data were processed

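RNA from somata and processes was sequenced after ribosomal depletion with a directional kit. The authors deposited whole-number read counts per gene symbol. The submitters' processing notes name STAR, featureCounts, edgeR and the build Rnor_6.0, and the study's methods also name featureCounts but give Subread as the aligner, so which aligner was used for the deposited counts could not be settled. Whether counting used strand is not given in the sources used here, and Atp2b2, Atp2b3, Atp2b4 and Slc8a3 overlap other gene records in GRCr8. Deposited tables of the authors' own comparisons were not used.

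A gene was tested if its count exceeded 20 in 2 libraries or more. Tests were run on the deposited counts in R 4.3.3 with edgeR 4.0.16 (TMM, quasi-likelihood test, 1 coefficient per condition, all 8 libraries, Benjamini-Hochberg adjustment over 14309 genes, threshold 0.05). The script was tested on simulated data. Standard errors were derived from the F statistic. CPM were computed over effective library sizes, and correlations used log2 CPM with a prior count of 2. A gene had a median of 289.25 reads per library in somata and 102.5 in processes, which limits precision in processes.

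Same-numbered libraries deviated together in all 6 pairs of conditions (r = 0.540 between the somata conditions and 0.274 to 0.367 otherwise). The replicate numbers were therefore taken as pairing in the blocked model, although the labels do not say what a number marks. The main test did not use this pairing. With the block the common dispersion was 0.00459 instead of 0.0132. No 2 libraries of a condition agreed within sampling noise (chi-square per degree of freedom 9.11 to 21.1).

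The named genes were the 8 pumps and exchangers, genes of the calcium lists that passed a comparison, and for each of the 8 the 3 most alike genes, of which a few values are not reported here. The genes and lists were chosen with earlier results of these data known. The comparisons of the 8 genes and the counts of calls were recomputed with DESeq2 1.42.0, the likelihood ratio test, and library size alone, upper-quartile or RLE scaling. Others were without genes of the mitochondrial genome, without a filter or with a minimum of 10 reads throughout. The rest used the 4 libraries of the comparison alone, the replicate block, or left out each library in turn. Levels of the 8 genes were recomputed only without genes of the mitochondrial genome and without single libraries, and shares only without single libraries. Tests of markers and of the wider calcium list were recomputed only with the block. Family sums and correlations were not recomputed.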

Additional observations from a re-analysis of the deposited data

Results flagged for a closer look

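The PTX effect on Atp2b2 differed between the compartments by 0.77 on the log2 scale (processes minus somata, standard error 0.160). It was flagged because both PTX libraries lay below both controls in somata and above both controls in processes. How many of all tested genes show this pattern was not counted. The difference did not pass the quasi-likelihood test of edgeR (adjusted p = 1) and passed with the replicate number as a block (adjusted p = 0.0116). No explanation for it was tested.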

How the results depend on the processing

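Of the 40 values of the 8 genes in the 5 comparisons, 20 kept their direction and their side of the threshold in every alternative. Over all 712 alternative values, 646 did so, 16 lost significance, 31 gained it and 19 changed sign. The decreases of Atp2b3, Atp2b4 and Slc8a2 with PTX in somata passed in every alternative, and so did that of Slc8a2 in processes. The count of these genes called with PTX in somata was 3 in every alternative but the block, where it was 4.

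For all genes, the 513 calls with PTX in somata became 972 with the likelihood ratio test, 1141 without the filter and 2002 with the block, and 117 to 568 when each library was left out. In processes the 535 calls became 949, 1129 and 1601, and 298 with only the 4 libraries compared, and 97 to 478 with a library left out. The lowest values, 97, 164 and 172, came without the first control, the first PTX and the second PTX library of processes. For the 8 genes, the 3 called in processes became 5 with the block, 4 (with Atp2b2) in 8 of the other alternatives, 2 with only the 4 libraries compared and 1 to 3 with a library left out, the 1 being without the first control library of processes. The interaction called 4 genes with the likelihood ratio test, 4 with DESeq2, 10 without the filter and 15 with the block, of which 1 was Atp2b2. The replicate block changed the call of no other of the 8 genes than those given with the results.

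Library size alone gave 13462 calls between compartments in control cultures and 13499 in PTX cultures, the latter with 8 of the 8 genes against 4. Only 1.42% and 1.34% of those calls were higher in processes, against 54.1% and 51.7%. It turned the sign of Atp2b1 (0.011) and Slc8a1 (0.011) with PTX in processes and of Atp2b2 (-1.52) and Slc8a1 (-1.65) between the compartments of PTX cultures. With PTX in somata it gave 71.5% higher calls against 58.3%. Upper-quartile scaling moved the median of all genes between compartments to -0.25 and -0.23, with 36.9% and 37.9% higher calls, and turned the interaction of Slc8a3 (0.011).

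With a library left out, the sign of values near 0 turned: with PTX in processes Atp2b1 ranged from -0.13 to 0.057, Slc8a1 from -0.14 to 0.074 and Slc8a3 from -0.23 to 0.040. Between compartments Slc8a1 ranged from -0.084 to 0.052 and Slc8a3 from -0.18 to 0.060 in control cultures, and Slc8a3 from -0.21 to 0.064 in PTX cultures. The interaction ranged from -0.15 to 0.12 for Slc8a3, -0.016 to 0.23 for Slc8a2 and -0.033 to 0.20 for Atp2a2. In these fits the lone library of a condition is assumed to vary like the others. The causes were not tested. CPM over nuclear genes were 2.11 to 2.12 times those over all genes. Shares per transcript length were not run.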
